A study of Mus musculus with 16 samples.

Results

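The genes described here were 10 genes of the primary granule and of early granulocyte-monocyte differentiation, namely Mpo, Elane, Prtn3, Ctsg, Lyz2, Serpinb1a, Cst7, Ms4a3, Nkg7 and Gfi1. They were taken as a named list, with no measured value in the rule, out of 47937 gene identifiers in the count tables. All 10 matched 1 identifier each and passed the filter on low counts (an average over 100 counts in at least 1 group), which 11831 genes passed in all.

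RNA of MPP3 and MPP4 cells from bone marrow of 8 C57BL/6 mice was sequenced in bulk to learn what Ebf1, which encodes a factor needed for B cell development, does in multipotent progenitors. MPP3 and MPP4 are sorted from the same lineage-negative, Sca1+ cKit+ compartment, both as CD150- CD48+ cells, and are set apart by the surface receptor Flt3, which MPP4 carry. There were 16 libraries, 4 per population and labelled genotype, and each mouse gave 1 MPP3 and 1 MPP4 library. Per the labels, mice called WT were Ebf1fl/fl Tie2Cre+/+, without the transgene, and mice called KO were Ebf1fl/fl Tie2Cre +/cre, so both carried floxed alleles and KO mice alone the Cre. The series description gives Tie2Cre to both groups and unfloxed Ebf1 to WT, and the study's methods allow either kind of control, so a difference between the labelled genotypes cannot be told apart from one between carriers and non-carriers of Cre. The Tie2 promoter is active in endothelium and in blood stem cells, so recombination was not limited to the sorted cells. Females and males were equal in number, 2 of each per genotype. In the order of their numbers, WT mice were 12, 11, 12 and 11 weeks old (females first, then males), and the KO mice 10, 9, 11 and 11 weeks old (males first, then females).

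Primary granules are the first granules that a developing neutrophil makes, at the promyelocyte stage, and they carry myeloperoxidase and a set of serine proteases that kill ingested microbes. The proteases are made as inactive precursors, cut into active form by cathepsin C and held in check by serpins, while cystatins inhibit cathepsins. Their messenger RNAs appear early, in granulocyte-monocyte progenitors, under factors such as C/EBP-alpha, PU.1, RUNX1 and MYB, while GFI1 is a repressor that steers progenitors toward neutrophils.

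Libraries held between 24823708 and 48703193 counts, and levels below are normalised CPM (counts scaled to a common library size), after TMM scaling. A count of 3, the limit that a count of 0 allows, stood for 0.0619 to 0.118 CPM, and this limit covers counting error only. Flt3 separated the gates, with 281 ± 25.3 CPM (SD, n = 4) among MPP3 WT libraries and 1229 ± 92.1 CPM among MPP4 WT libraries. Ebf1 itself did not follow the labels in MPP4: it was at 3.32 to 6.19 CPM in the libraries labelled WT and at 17.6 to 24.9 CPM in those labelled KO. In MPP3 its mean was lower in KO (1.31 CPM in WT and 0.795 CPM in KO), but the ranges overlapped (0.150 to 2.19 CPM and 0.151 to 2.23 CPM). Counts per gene do not show which exons the reads came from. The genotypes are therefore given throughout as labelled. In bulk RNA, fewer cells that carry a transcript and less of it per cell cannot be told apart.

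The stretches upstream of 4 genes are shown first, chosen for the levels of these genes. Whether the sequences bear on the levels was not tested. Elane and Prtn3 are neighbours on chromosome 10 that parted in MPP4, Ms4a3 followed Elane most closely, and Ctsg had the smallest unadjusted p of the 10 genes in both comparisons of KO with WT. Sequences are from RefSeq (GRCm38.p6), run 5′ to 3′ on the strand of the gene, and end at the RefSeq start site or where an annotated exon begins. Capitals mark matches to GAGGAA (named here PU.1), AACTG (MYB), TGTGGT (RUNX), TTGCNNAA (C/EBP), AATCACNGC (GFI1) or CCCNNGGG (EBF) on either strand.
Elane, chr10:79886062-79886246, + strand, -250 to -66 from the RefSeq start: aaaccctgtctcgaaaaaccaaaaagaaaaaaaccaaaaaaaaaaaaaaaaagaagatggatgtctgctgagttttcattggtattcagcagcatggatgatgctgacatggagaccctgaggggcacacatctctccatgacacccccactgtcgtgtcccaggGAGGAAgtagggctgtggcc
Prtn3, chr10:79879417-79879613, + strand, -250 to -54: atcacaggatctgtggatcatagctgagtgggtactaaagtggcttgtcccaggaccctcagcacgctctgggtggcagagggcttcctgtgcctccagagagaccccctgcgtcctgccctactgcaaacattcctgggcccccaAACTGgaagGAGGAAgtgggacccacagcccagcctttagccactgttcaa
Ctsg, chr14:56102575-56102824, - strand, -250 to -1: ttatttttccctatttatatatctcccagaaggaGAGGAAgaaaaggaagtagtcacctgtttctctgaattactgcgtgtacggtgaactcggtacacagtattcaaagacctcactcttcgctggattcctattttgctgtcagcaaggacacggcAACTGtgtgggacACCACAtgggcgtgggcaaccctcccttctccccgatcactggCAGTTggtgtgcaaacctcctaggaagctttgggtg
Ms4a3, chr19:11640852-11641101, - strand, -250 to -1: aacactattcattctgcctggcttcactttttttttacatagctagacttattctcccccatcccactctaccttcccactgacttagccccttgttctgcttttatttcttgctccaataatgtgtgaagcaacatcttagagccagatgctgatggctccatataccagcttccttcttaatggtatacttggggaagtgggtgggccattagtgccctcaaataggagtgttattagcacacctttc

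Of the 10 genes, 9 had an entry in the table, with 10 windows in all since Gfi1 has 2. Elane held the PU.1 letters at -85 to -80, and Prtn3 held them at -95 to -90, just after the MYB letters at -104 to -100. The Ctsg window held the PU.1 letters at -216 to -211, the MYB letters at -92 to -88 and again at -36 to -32, and the RUNX letters at -79 to -74. No match to any of the 6 motifs lay in the Ms4a3 window, which says only that these letters are not in these 250 bases. Over the windows of the same length before all 32851 start sites in the table, 23.2% held the PU.1 letters, 14.0% RUNX, 39.1% MYB, 9.56% C/EBP, 0.776% GFI1 and 11.8% EBF. Of the 10 windows, 4 held PU.1 (Mpo, Elane, Prtn3, Ctsg), 4 held RUNX (Cst7, Ctsg, Lyz2, Nkg7), 6 held MYB and none held GFI1. The single C/EBP match and the single EBF match both lay before Gfi1, where the C/EBP letters (-143 to -136) overlapped a MYB match (-137 to -133). The annotation (GENCODE) starts Prtn3 at 79874476, upstream of the RefSeq start, with the RefSeq window inside the gene.

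Between the populations, the 10 genes differed by very unequal factors. Elane and Ms4a3 were at least 20.6 times higher in MPP3 than in MPP4 in each of the 8 mice, Mpo, Ctsg, Prtn3, Nkg7 and Lyz2 were higher by smaller factors, Serpinb1a was called higher in KO but not in WT, and Cst7 and Gfi1 did not pass the test. Among mice labelled WT, 7 of the 10 genes were called higher in MPP3 by edgeR's quasi-likelihood test (FDR under 0.1) and none lower, where 15.1% of all genes tested were called in either direction and 6.8% were called higher in MPP3. The same 7 genes, and Serpinb1a, were called higher among mice labelled KO, where 17.9% of all genes were called and 8.71% were called higher. The libraries of the populations did not overlap for those 7 genes in WT, against 7.6% of all genes higher in MPP3 without overlap, and for 8 in KO, against 8.6%. The median log2 fold change of the 10 genes was 0.92 in WT and 1.06 in KO, and that of all genes tested was 0.00 in WT and -0.01 in KO. With the mouse as a block, 2930 genes were called in WT and 3346 in KO, and 8 of the 10 genes were called in each, Serpinb1a joining in WT with an adjusted p of 0.0938.

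Between the labelled genotypes, no gene of the 10 was called by edgeR in either population, although most were higher in KO. In MPP3 all 10 had a positive log2 fold change of KO against WT, with a median of 0.60 against -0.01 over all genes, and in MPP4 8 of 10 did, with a median of 0.33 against -0.01. Of all genes tested, edgeR called 0.0676% in MPP3 (8 genes) and 0.0169% in MPP4 (2 genes). One of the genes called in MPP4 was Kit, the receptor that marks the sorted progenitors, with means of 547 CPM in WT and 408 CPM in KO (-0.42 ± 0.07, adjusted p = 0.0560). At an unadjusted p under 0.05, 5 of the 10 genes were higher in MPP3 KO (Mpo, Prtn3, Ctsg, Cst7, Gfi1), where 4.29% of all genes were, and 3 in MPP4 KO (Ctsg, Cst7, Gfi1), where 5.68% were. The KO libraries lay above all WT libraries for none of the 10 in MPP3, against 2.17% of all genes, and for Ctsg and Cst7 in MPP4, against 2.83%. DESeq2, which the study used to call its genes, was run here as an alternative (Wald test). It called Ctsg and Prtn3 in MPP3, among 215 genes (1.82% of those tested), and Ctsg in MPP4, among 305 genes (2.58%). The calls between genotypes thus depended on the test. The 2 comparisons of genotypes use different libraries but the same mice.

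**Figure D1:**
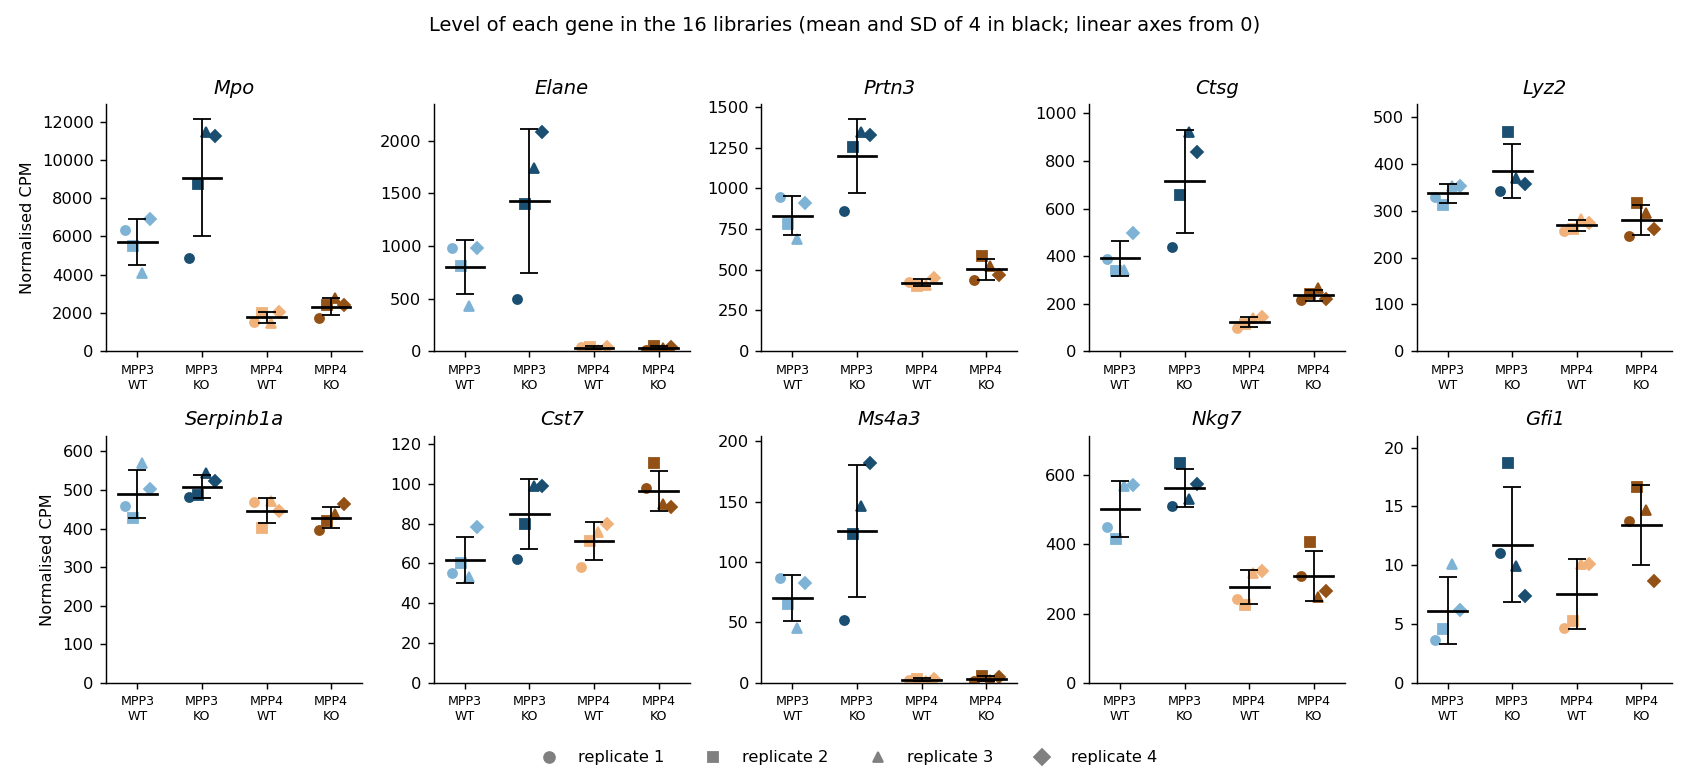
Normalised CPM of each gene (linear axis from 0) in the 16 libraries, with a symbol for each replicate number and the mean ± SD of 4 libraries in black. Elane and Ms4a3 lie near 0 in both MPP4 groups, and replicate 1 of MPP3 KO is the lowest library of its group for 9 of the 10 genes.

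Mpo (ENSMUSG00000009350, GRCm38 chr11:87793581-87804413, + strand) encodes myeloperoxidase, the enzyme that makes hypochlorous acid from hydrogen peroxide and chloride. It had 6335, 5486, 4107 and 6923 CPM in MPP3 WT and 4848, 8736, 11465 and 11249 CPM in the MPP3 KO libraries. In MPP4 it had 1538, 1981, 1473 and 2068 CPM in WT and 1729, 2412, 2805 and 2391 CPM in KO. Every MPP3 library lay above every MPP4 library, and in both populations 3 of the 4 KO libraries lay above all WT libraries while replicate 1 fell among them. Mpo was 3.24-fold higher in MPP3 than in MPP4 in WT (log2 fold change 1.69 ± 0.23 SE, adjusted p = 8.69e-05) and 3.89-fold higher in KO (1.96 ± 0.23, adjusted p = 1.96e-05). KO against WT gave a log2 fold change of 0.67 ± 0.23 in MPP3 (adjusted p = 0.299) and 0.40 ± 0.23 in MPP4 (adjusted p = 0.475). Mpo was the most abundant gene of all in 6 of the 8 MPP3 libraries and second in the other two, while in MPP4 it ranked between 11 and 45. It made up 46.2% to 66.8% of the counts of the 10 genes in any library. An antisense gene, Gm11505, overlaps Mpo and had a mean of 0.340 CPM.

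Elane (ENSMUSG00000020125, chr10:79886247-79888215, + strand) encodes neutrophil elastase, a serine protease of the primary granule. In MPP3 it was at 976, 809, 433 and 979 CPM in WT and at 496, 1394, 1741 and 2084 CPM in KO. The MPP4 libraries had 41.7, 37.4, 11.8 and 43.3 CPM in WT and 12.3, 50.2, 29.6 and 39.4 CPM in KO. Within MPP3, 3 KO libraries lay above all WT libraries and replicate 1 lay near the lowest WT library. Within MPP4 the genotypes overlapped, with 1 KO library above all WT libraries and 1 WT library below all KO libraries. Elane was 23.9-fold higher in MPP3 in WT (log2 fold change 4.58 ± 0.53, adjusted p = 1.66e-05) and 43.4-fold higher in KO (5.44 ± 0.55, adjusted p = 3.58e-06). The comparison of KO with WT gave 0.84 ± 0.46 in MPP3 (adjusted p = 0.569) and -0.02 ± 0.46 in MPP4 (adjusted p = 0.990). It was also the most variable of the serine proteases between mice, the highest MPP3 KO library holding 4.20 times the level of the lowest.

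Prtn3 (ENSMUSG00000057729, chr10:79874476-79883174, + strand) encodes proteinase 3, and its annotated end lies 3073 bases before Elane on the same strand. It was at 947, 779.9, 689 and 912 CPM in MPP3 WT and at 859, 1256, 1346 and 1327 CPM in the MPP3 KO libraries. In MPP4 it was at 423, 400.5, 407 and 450.1 CPM in WT and at 437, 583, 523 and 465 CPM in KO. All MPP4 libraries were thus below all MPP3 libraries, and the WT libraries of MPP4 lay close together. The fold between populations was 1.98 in WT (log2 fold change 0.99 ± 0.13, adjusted p = 7.13e-05) and 2.38 in KO (1.25 ± 0.13, adjusted p = 5.50e-06), against 23.9 and 43.4 for its neighbour Elane. KO against WT gave 0.52 ± 0.13 in MPP3 (adjusted p = 0.164) and 0.26 ± 0.13 in MPP4 (adjusted p = 0.425). Prtn3 overlaps Plppr3 on the opposite strand, which had a mean of 206 CPM, and 3.62% of the 100-base windows of its transcripts were shared with that gene. How reads in the overlap were assigned is not known, so the level of Prtn3 is uncertain to that extent. Cfd, the next gene after Elane (2638 bases on) and another serine protease, had a mean of at most 0.359 CPM in any group.

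Ctsg (ENSMUSG00000040314, chr14:56099881-56102574, - strand) encodes cathepsin G, a granule serine protease that sits in a cluster with mast cell proteases and granzymes. It was at 388, 339, 340.3 and 497 CPM in MPP3 WT and at 437, 657, 922 and 839 CPM in the MPP3 KO libraries. In MPP4 the values were 96.9, 115, 139.5 and 143 CPM in WT and 214, 241, 266 and 221 CPM in KO. Each MPP4 KO library lay above each MPP4 WT library, and in MPP3 replicate 1 of KO alone lay below a WT library. Ctsg was 3.16-fold higher in MPP3 in WT (log2 fold change 1.66 ± 0.19, adjusted p = 1.88e-05) and 3.03-fold higher in KO (1.60 ± 0.19, adjusted p = 2.18e-05). The log2 fold change of KO against WT was 0.87 ± 0.19 in MPP3 (1.83-fold, adjusted p = 0.147) and 0.93 ± 0.19 in MPP4 (1.91-fold, adjusted p = 0.110). These calls depended on the setting. The adjusted p was under 0.1 in 3 of 7 other settings in MPP3, among them sex as a term (0.0998) and DESeq2 (0.00881), and reached 0.357 with the 8 MPP3 libraries alone. In MPP4 it was under 0.1 in 4 of 7 settings, among them sex as a term (0.0604) and DESeq2 (0.00325), and reached 0.259 with age as a term. Leaving out 1 library or 1 mouse gave an adjusted p under 0.1 in 4 of 24 fits for each population, with a range of 0.0150 to 0.423 in MPP3 and 0.0600 to 0.324 in MPP4, and the lowest values were those without the MPP3 KO library of replicate 1. The other single libraries whose removal gave a call were MPP3 WT replicate 4, for MPP3 (0.0665), and MPP4 KO replicate 4, for MPP4 (0.0985). Its neighbour Mcpt8, a basophil protease gene 14608 bases away, was called higher in MPP3 in both genotypes (0.81 ± 0.16 in WT and 1.25 ± 0.16 in KO), and Gzme, on the other side, had no counts.

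Lyz2 (ENSMUSG00000069516, chr10:117277331-117282321, - strand) encodes lysozyme, which cuts bacterial cell walls and is found in granules of neutrophils and in monocytes. It varied little, at 329, 313, 354 and 353 CPM in MPP3 WT, 342, 469, 371 and 358 CPM in the MPP3 KO libraries, 258, 262, 283 and 274 CPM in MPP4 WT and 246, 318, 295 and 261 CPM in MPP4 KO. MPP3 libraries lay above MPP4 libraries of the same genotype without overlap, by 1.25-fold in WT (log2 fold change 0.33 ± 0.10, adjusted p = 0.0356) and 1.37-fold in KO (0.46 ± 0.10, adjusted p = 0.00323). The WT call was lost when either mouse WT3 (adjusted p = 0.123) or mouse WT4 (0.151) was left out. Log2 fold changes of KO against WT were 0.19 ± 0.10 in MPP3 and 0.06 ± 0.10 in MPP4 (adjusted p = 0.516 and 0.835). Its paralog Lyz1, 5476 bases away and sharing 1.97% of the 100-base windows of Lyz2, had a mean of at most 0.0566 CPM in any group.

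The inhibitors among the 10 genes differed little or not beyond the error between populations. Serpinb1a (ENSMUSG00000044734, chr13:32842092-32851185, - strand) encodes an inhibitor of elastase, proteinase 3 and cathepsin G. It was at 459, 427, 569 and 504 CPM in MPP3 WT, 481, 486, 544 and 523 CPM in the MPP3 KO libraries, 468, 401, 472 and 445 CPM in MPP4 WT and 396, 419, 437 and 463 CPM in MPP4 KO. Populations overlapped in WT and parted in KO, where MPP3 was 1.19-fold higher (log2 fold change 0.25 ± 0.08, adjusted p = 0.0622, against 0.13 ± 0.08 and 0.397 in WT). This small call did not hold in every setting: the adjusted p rose to 0.116 when all genes with at least 1 count were tested, and to 0.166 without MPP3 KO replicate 3, 0.133 without MPP3 KO replicate 4, 0.168 without MPP4 KO replicate 1 and 0.134 without MPP4 KO replicate 2. With the fits that left out both libraries of a mouse counted in, it was lost in 7 of 24, with a highest adjusted p of 0.218 without both libraries of KO replicate 3. KO differed from WT by 0.05 ± 0.08 in MPP3 and by -0.06 ± 0.08 in MPP4 on the log2 scale (adjusted p = 0.883 and 0.802).

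Cst7 (ENSMUSG00000068129, chr2:150570415-150578944, + strand) encodes cystatin F, which inhibits cathepsin C and other cathepsins. Its values were 55.2, 60.3, 53.1 and 78.5 CPM in MPP3 WT and 62.3, 80.1, 98.7 and 98.9 CPM in the MPP3 KO libraries. The MPP4 values were 58.0, 71.2, 75.7 and 79.9 CPM in WT and 97.8, 110.3, 89.8 and 88.4 CPM in KO, so that the MPP4 genotypes did not overlap. Log2 fold changes of KO against WT were alike in the populations, at 0.46 ± 0.15 in MPP3 (adjusted p = 0.286) and 0.44 ± 0.15 in MPP4 (adjusted p = 0.238). Unlike the proteases it was not higher in MPP3: the log2 fold change of MPP3 against MPP4 was -0.20 ± 0.15 in WT and -0.18 ± 0.15 in KO (adjusted p = 0.498 and 0.522).

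Ms4a3 (ENSMUSG00000024681, chr19:11629496-11640851, - strand) encodes a membrane protein of the Ms4a family whose expression marks granulocyte-monocyte progenitors. In MPP3 it was at 86.7, 64.8, 45.7 and 83.0 CPM in WT and at 52.1, 123, 146 and 182 CPM in KO. In MPP4 it was at 2.64, 3.15, 1.05 and 3.25 CPM in WT and at 1.07, 5.33, 2.00 and 4.99 CPM in KO, from 37 to 199 counts per library and so above the limit that a count of 0 allows. The order of the libraries was nearly that of Elane, with WT replicate 3 and KO replicate 1 lowest in both populations. The fold between populations was 28.0 in WT (log2 fold change 4.81 ± 0.50, adjusted p = 5.97e-06) and 37.1 in KO (5.21 ± 0.51, adjusted p = 2.38e-06). KO against WT gave 0.84 ± 0.42 in MPP3 and 0.44 ± 0.48 in MPP4 (adjusted p = 0.511 and 0.731). The MPP4 value rested on single mice: it was 0.12 without the mouse of KO replicate 2 and 0.74 without that of KO replicate 1. The neighbouring gene Ms4a2, which encodes the beta chain of the IgE receptor and lies 5777 bases away, had means of 7.97 CPM in MPP3 WT and 0.278 CPM in MPP4 WT, and passed the filter on low counts through MPP3 alone.

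Nkg7 (ENSMUSG00000004612, chr7:43437073-43438249, + strand) encodes a granule membrane protein best known from natural killer and T cells. It was at 451, 416, 567 and 573 CPM in MPP3 WT and at 512, 634, 530.3 and 575 CPM in the MPP3 KO libraries, and at 243, 225, 316 and 324 CPM in MPP4 WT and 309.8, 408, 249 and 266 CPM in MPP4 KO. Populations did not overlap within either genotype, with MPP3 1.81-fold higher in WT (log2 fold change 0.86 ± 0.16, adjusted p = 0.00124) and 1.83-fold higher in KO (0.87 ± 0.16, adjusted p = 9.72e-04). The genotypes overlapped in both populations (0.17 ± 0.16 and 0.15 ± 0.16, adjusted p = 0.772 and 0.709). Markers of natural killer and T cells were low beside it: the summed level of 9 such genes was at most 19.4 CPM in any library, and Ncr1 had no counts in MPP4.

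Gfi1 (ENSMUSG00000029275, chr5:107716657-107726036, - strand), the transcription factor of the set, had the lowest mean CPM of the 10 genes in MPP3, and in MPP4 only Ms4a3 was lower. It had 3.67, 4.53, 10.1 and 6.22 CPM in MPP3 WT and 11.0, 18.7, 9.95 and 7.37 CPM in the MPP3 KO libraries, and 4.70, 5.28, 10.1 and 10.1 CPM in MPP4 WT and 13.7, 16.6, 14.7 and 8.61 CPM in MPP4 KO. In MPP3 the genotypes overlapped through the highest WT library (replicate 3), and in MPP4 the lowest KO library (replicate 4) lay below a pair of WT libraries. KO exceeded WT by a log2 fold change of 0.93 ± 0.36 in MPP3 (adjusted p = 0.364) and 0.83 ± 0.36 in MPP4 (adjusted p = 0.336). With sex as a term the MPP4 comparison had an adjusted p of 0.0929, and with age as a term the log2 fold changes were 0.53 in MPP3 and 0.48 in MPP4 (adjusted p = 0.819 and 0.804). The female mice had means of 4.10 CPM (WT) and 8.66 CPM (KO) in MPP3 and 4.99 and 11.7 CPM in MPP4, and the male mice 8.17 and 14.9 CPM in MPP3 and 10.1 and 15.2 CPM in MPP4, so KO was higher than WT within each sex. Between populations Gfi1 did not pass the test (-0.30 ± 0.36 in WT and -0.19 ± 0.35 in KO, adjusted p = 0.713 and 0.813). A430072P03Rik overlaps Gfi1 on the opposite strand, with a mean of 3.30 CPM, and the 2 genes cannot be told apart there if strand was not used in counting.

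**Figure D2:**
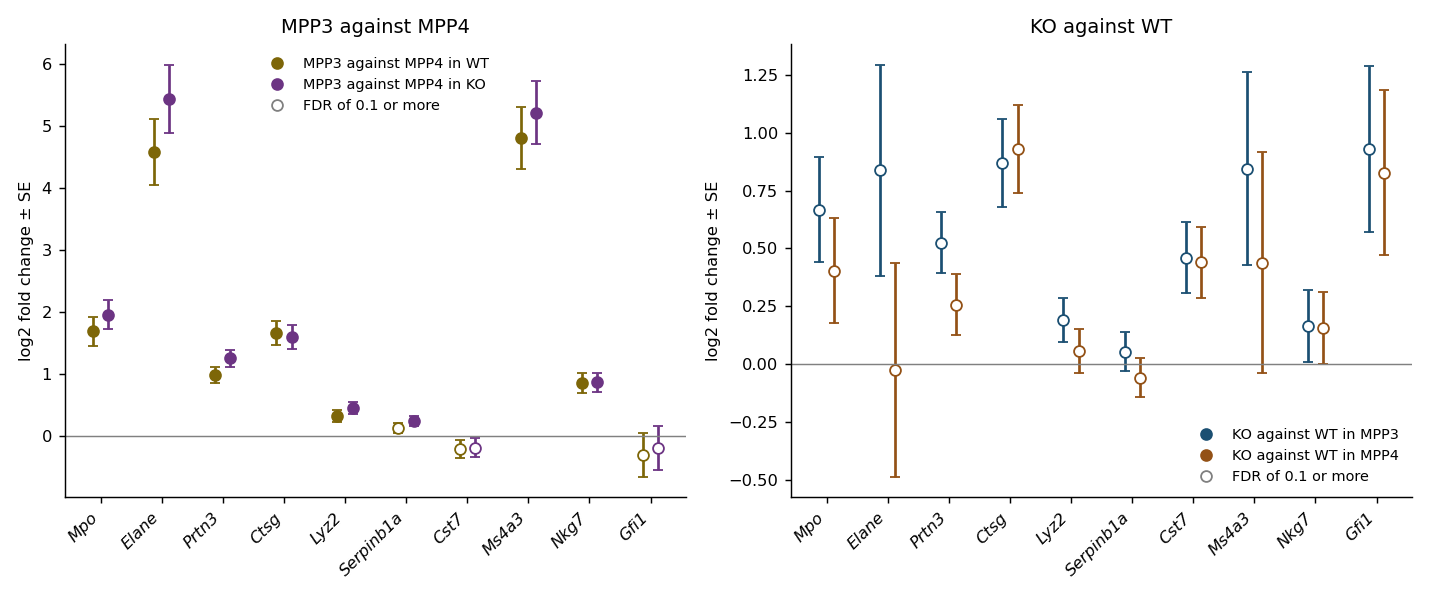
Log2 fold change ± SE of each gene from edgeR, for MPP3 against MPP4 in each genotype (left) and for KO against WT in each population (right), with open symbols where the adjusted p was 0.1 or more. Elane and Ms4a3 stand at 4.58 to 5.44 on the left, and every symbol on the right is open.

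Whether the difference between genotypes itself differed between MPP3 and MPP4 was tested as an interaction. No gene of the 10, and 0 (0%) of all genes tested, was called by edgeR. None of the 10 and 270 of all genes had an unadjusted p under 0.05, and DESeq2 called 8 genes, none of them among the 10. The log2 fold change in MPP3 minus that in MPP4 was above 0 for 9 of the 10 genes, with a median of 0.12 against 0.0027 over all genes tested, and Elane had the largest difference, 0.86 ± 0.65. With the mouse as a block the standard errors were smaller and 2 genes were called, again none of the 10. Elane then differed by 0.77 ± 0.21 and Prtn3 by 0.26 ± 0.11 (adjusted p = 0.690 and 0.816). These 2 of the 10 had an unadjusted p under 0.05 in that fit (0.00276 and 0.0329), as did 696 of all 11831 genes.

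Within mice, the ratio of MPP3 to MPP4 gave the same picture with the mouse held fixed. Elane was 21.7 to 36.9 times higher in MPP3 in the WT mice and 27.8 to 58.8 times in the KO mice, and Ms4a3 20.6 to 43.4 and 23.1 to 73.0 times. The ratio of Mpo was 2.77 to 4.12 in WT mice and 2.80 to 4.70 in KO mice, that of Ctsg 2.44 to 4.00 and 2.05 to 3.79, and that of Prtn3 1.69 to 2.24 and 1.97 to 2.85. Nkg7 (1.55 to 2.16) and Lyz2 (1.20 to 1.48) were also above 1 in all 8 mice, Serpinb1a was above 1 in 7 mice, and Cst7 and Gfi1 in 2 mice each. The ranges of WT and KO mice overlapped for each of these genes.

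**Figure D3:**
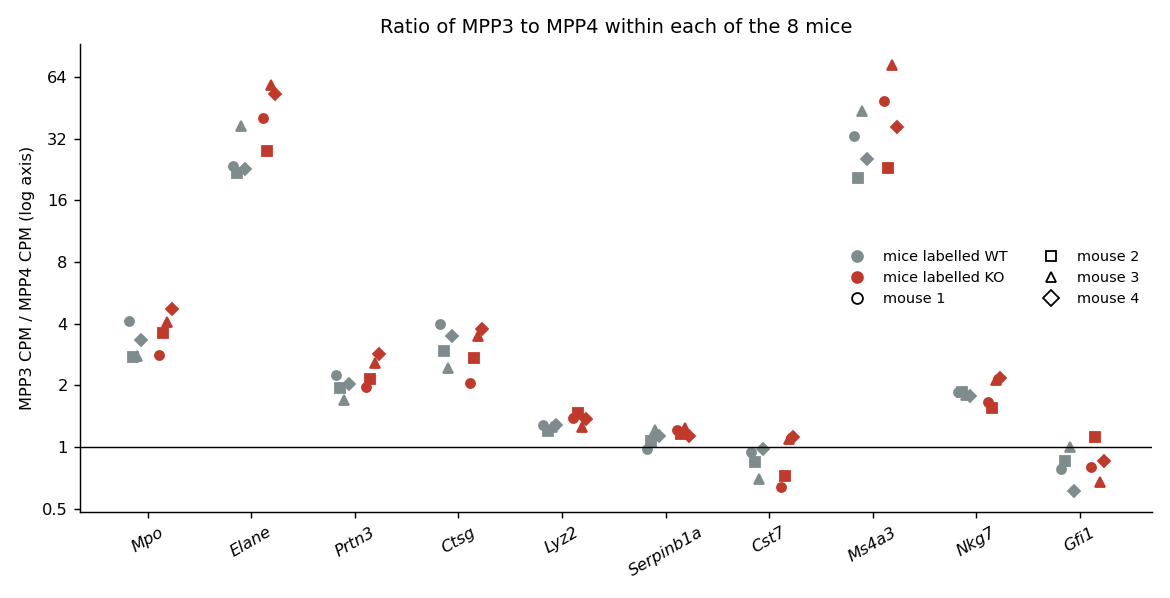
Ratio of the MPP3 level to the MPP4 level (log axis) in each of the 8 mice, grey for mice labelled WT and red for mice labelled KO, with a symbol for each mouse number. Elane and Ms4a3 lie between 20.6 and 73.0, and Cst7 and Gfi1 lie around 1.

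Scaled to the exon length of each gene, the order of the levels changed between populations mainly because of Elane. In CPM per kilobase of annotated exon, Mpo came first in all 4 groups, at 1668 in MPP3 WT, 2650.0 in MPP3 KO, 515.5 in MPP4 WT and 682 in MPP4 KO. In MPP3 WT it was followed by Elane (812), Nkg7 (549), Prtn3 (480.4), Ctsg (378), Lyz2 (256), Serpinb1a (213), Cst7 (62.7), Ms4a3 (37.2) and Gfi1 (1.92). Mpo (1200.0 to 2022) did not overlap Elane (440.4 to 995), but Elane overlapped Nkg7 (455 to 627), Nkg7 overlapped Prtn3 (398 to 547), Prtn3 overlapped Ctsg (328 to 481), and Lyz2 (238 to 269) overlapped Serpinb1a (185.5 to 247). Cst7, Ms4a3 and Gfi1 stood apart from each other and from the rest. In MPP4 WT the order was Mpo, Nkg7 (303), Prtn3 (242), Lyz2 (204), Serpinb1a (194), Ctsg (119.6), Cst7 (72.2), Elane (34.1), Gfi1 (2.37) and Ms4a3 (1.34). By its mean Elane thus went from the second place in MPP3 to the eighth in MPP4 in both genotypes, and in MPP4 WT its range (11.95 to 44.0) overlapped no other. Ms4a3 had a lower mean than Gfi1 in MPP4, but their ranges overlapped in WT (0.558 to 1.72 and 1.47 to 3.18) and in KO (0.566 to 2.83 and 2.702 to 5.22). Nkg7 overlapped Prtn3, and Lyz2 overlapped Serpinb1a, in MPP4 WT as well. In MPP4 KO the mean of Ctsg (228) lay ahead of Lyz2 (213) and Serpinb1a (186), with the ranges of Ctsg (207 to 257) and Lyz2 (187 to 241.5) overlapping.

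**Figure D4:**
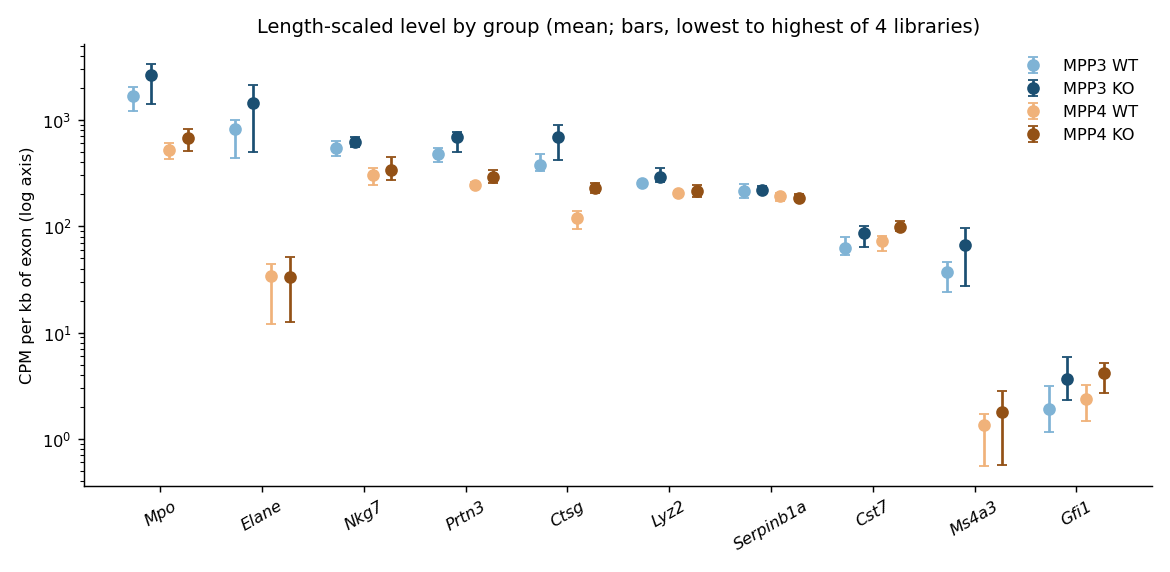
Mean CPM per kilobase of exon (log axis) for each gene, ordered by MPP3 WT, with bars from the lowest to the highest of 4 libraries and a colour for each group. Mpo is highest throughout, and the MPP4 symbols of Elane and Ms4a3 lie far below their MPP3 symbols.

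As a share of all counts, the 10 genes took 0.722% to 1.08% of a library in MPP3 WT, 0.817% to 1.71% in MPP3 KO, 0.317% to 0.377% in MPP4 WT and 0.346% to 0.458% in MPP4 KO. MPP3 and MPP4 libraries did not overlap in this share, while WT and KO did in each population. Some libraries were low for most of the genes. Replicate 1 of MPP3 KO was the lowest library of its group for 9 of the 10 genes (not for Gfi1), and replicate 1 of MPP4 KO, from the same mouse, for 7. Replicate 3 of MPP3 WT was lowest for Mpo, Elane, Prtn3, Cst7 and Ms4a3. Without MPP3 KO replicate 1, KO against WT called, in MPP3, Mpo (log2 fold change 0.88 ± 0.18, adjusted p = 0.0622), Prtn3 (0.65 ± 0.11, adjusted p = 0.0247) and Ctsg (1.04 ± 0.16, adjusted p = 0.0150), among 72 genes in all. That library was left out as 1 of 16 left out in turn, and no label marks it as different. The fit that called the most genes in MPP3, 137, left out MPP3 WT replicate 3 and called none of the 10.

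After the mean of each group was subtracted, some of the genes varied together across the 16 libraries. Elane and Ms4a3 had the highest Pearson correlation, 0.96, followed by Mpo and Prtn3 (0.87) and Ctsg and Cst7 (0.87). Elane, Ms4a3, Mpo and Prtn3 correlated with each other at 0.73 to 0.96. Ctsg correlated with Mpo at 0.82 and with Prtn3 at 0.77, but with Elane and Ms4a3 at 0.45 each. Gfi1 went with Nkg7 (0.70) and Lyz2 (0.68) and ran against Elane (-0.39). The highest correlation of Serpinb1a was 0.30, with Ctsg. These values describe 16 libraries from 8 mice, with both libraries of a mouse among them, and carry no test.

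**Figure D5:**
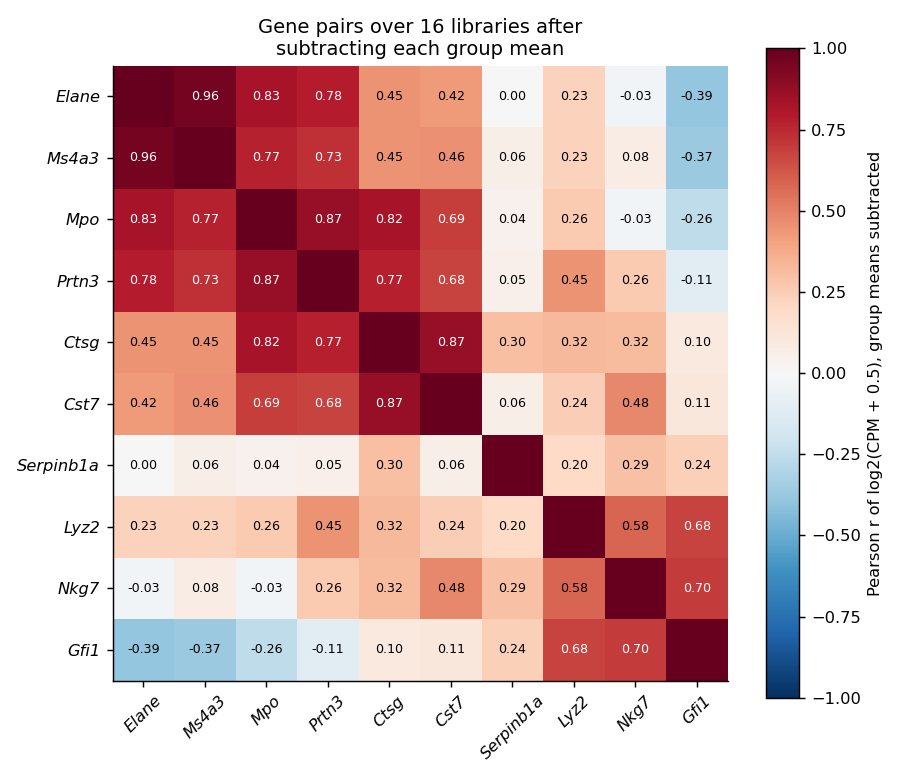
Pearson correlation of log2(CPM + 0.5) between each pair of genes over 16 libraries after the group means were subtracted (red positive, blue negative, diagonal fixed at 1). Elane, Ms4a3, Mpo and Prtn3 form a block at 0.73 to 0.96, and Lyz2, Nkg7 and Gfi1 another at 0.58 to 0.70.

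The genes closest to the mean profile of the 10 (each scaled to mean 0 and SD 1 on the log2 scale) over all 16 libraries were Fcgr2b (r = 0.97), Khk, Gstm1, Ap3s1, Pglyrp1, Csnk1e, Dbi and Hsd17b1 (r = 0.94). Fcgr2b encodes the inhibitory receptor for IgG and Pglyrp1 a peptidoglycan-binding protein of neutrophil granules. Over all 16 libraries the profile was led by the difference between populations. With group means subtracted the closest were Ftl1 (r = 0.93), which encodes ferritin light chain, Tmem222, Ctxn1, Idh2, Swap70, Rrp1, Bin1 and Particl (r = 0.86). No gene was on both lists. Each list holds the highest values among all genes tested, so high values come in part from the choice, and no test was made. The 10 genes themselves correlated with the second profile at 0.46 (Elane) to 0.80 (Ctsg).

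A wider set was read for context, the genes that store and mature the proteases. Of 16 such genes, all tested, 5 were called higher in MPP3 and 1 lower in WT, and 8 higher and 1 lower in KO. The largest in WT were Cd63, a granule membrane protein (1.497 ± 0.080, adjusted p = 2.50e-09), G6pc3 (0.60 ± 0.09), Srgn, the proteoglycan serglycin that binds granule proteases (0.58 ± 0.07), and Ctsl (0.40 ± 0.13). Ctsc, the protease that activates the others, was called at only 0.18 ± 0.06 in WT (adjusted p = 0.0966) and 0.26 ± 0.07 in KO. Ctss was lower in MPP3 (-1.78 ± 0.14 in WT). Between genotypes none of the 16 was called in either population, and 5 were higher in MPP3 KO and 4 higher and 1 lower in MPP4 KO at an unadjusted p under 0.05. DESeq2 called 4 of them higher in MPP3 KO and 2 in MPP4 KO. Beside the counts of this list and those below stand the shares of all genes tested. Called higher in MPP3 by edgeR were 6.8% in WT and 8.71% in KO. Higher in KO at an unadjusted p under 0.05 by edgeR were 4.29% in MPP3 and 5.68% in MPP4. Between genotypes DESeq2 called 1.82% in MPP3 and 2.58% in MPP4, in either direction.

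Of 17 genes of the specific and gelatinase granules or of the later neutrophil stages, 10 passed the filter, 6 of them through their MPP3 counts alone, and 5 were called higher in MPP3 in each genotype. Cebpe, Fcnb and S100a8 were among those 6, and a gene that passes only through the group where it is high is favoured to be called, so the count says little about the list. The 5 were Cebpe, a factor for late granule genes (3.56 ± 0.41 in WT), Fcnb (3.41 ± 1.06), Hp (3.38 ± 0.45), S100a8 (2.60 ± 0.51) and Cybb (2.06 ± 0.45). Padi4, which encodes a histone-modifying enzyme of neutrophils, had group means of 149 to 163 CPM and was not called between populations (-0.06 ± 0.11 in WT and -0.13 ± 0.11 in KO, adjusted p = 0.824 and 0.536), nor was Itgam, with group means of 5.49 to 9.55 CPM. Ltf, Lcn2, Mmp8 and Mmp9 had means of at most 1.86 CPM in any group. None was called between genotypes by edgeR, 4 were higher in MPP3 KO and 2 in MPP4 KO at an unadjusted p under 0.05, and DESeq2 called 1 and 0.

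Of 18 transcription factors and receptors of the granulocyte-monocyte path, 4 were called higher and 3 lower in MPP3 in WT, and 6 and 3 in KO. The higher ones include Cebpe, which passed the filter through MPP3 alone. Besides Cebpe, the higher ones in WT were Fcgr3 (3.26 ± 0.37), Csf2rb (0.39 ± 0.10) and Csf3r, the receptor for G-CSF (0.37 ± 0.10), and the lower ones Irf8, a factor of the monocyte and dendritic cell path (-1.498 ± 0.217), Clec12a (-0.81 ± 0.17) and Csf1r, the receptor for M-CSF (-0.60 ± 0.20). Cebpa (17.9 and 17.7 CPM in MPP3 and MPP4 WT) and Spi1, which encodes PU.1 (285 and 292 CPM), did not pass the test between populations (adjusted p = 0.991 and 0.905). In KO 14 of the 18 were higher in MPP3 and 15 in MPP4, with none called, 10 and 5 higher at an unadjusted p under 0.05, and 4 and 4 called by DESeq2. Of 7 partners and relatives of GFI1, Zbtb17 was called lower in MPP3 (-0.31 ± 0.08 in WT and -0.33 ± 0.08 in KO), Ehmt2 was called lower in MPP3 among KO mice (-0.39 ± 0.12, against -0.25 ± 0.12 and an adjusted p of 0.241 in WT), and none was called between genotypes, where 0 and 2 were higher at an unadjusted p under 0.05 and DESeq2 called 0 and 1. Among 24 neighbours and paralogs of the 10 genes, 14 were tested, and 5 in WT and 6 in KO were called higher in MPP3. Of these calls 3 in each genotype were of Gzmb, Cma1 and Ms4a2, which passed the filter through MPP3 alone. None of the tested genes was called between genotypes, with 5 and 3 higher in KO at an unadjusted p under 0.05 and 3 and 1 called by DESeq2. Ms4a4c, in both of the counts at an unadjusted p, passed the filter through its KO groups alone and so was favoured to be higher there. Its mean counts were 191.8 (MPP3) and 155 (MPP4) in KO, against 45.75 and 82.5 in WT. Gzmb, a granzyme of the Ctsg cluster, had up to 4.996 CPM in MPP3 WT and no counts in any MPP4 library.

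Markers of the sort gates and of other cells were read beside these results. Of 6 gate markers 5 were tested, and Kit in MPP4 was the one called between genotypes. Between populations 2 of them were called higher and 3 lower in MPP3 in WT, and 1 and 2 in KO. Of 8 monocyte and macrophage markers all were higher in KO in both populations and none was called by edgeR, with 7 and 4 at an unadjusted p under 0.05 and 5 and 3 called by DESeq2. Adgre1, among the 7, passed the filter through MPP3 KO alone (mean counts 106, against 29.25 in MPP3 WT) and so was favoured to be higher there. The summed level of the 8 markers was 117 to 275 CPM in MPP3 WT, 221 to 587 CPM in MPP3 KO, 153 to 164 CPM in MPP4 WT and 249.6 to 336 CPM in MPP4 KO, with Csf1r, also among the receptors above, counted in. MPP3 KO replicate 1, lowest for 9 of the 10 genes, was also the lowest of its group in this sum, and MPP3 WT replicate 3 was the lowest WT library. Of 12 mast cell and basophil markers 7 were tested and 6 called higher in MPP3 in both genotypes, but Cma1, Tpsb2 and Ms4a2 passed the filter through MPP3 alone, which leaves Cpa3 (log2 fold change 5.39 ± 0.43 in WT), Gata2 (1.80 ± 0.18) and Mcpt8. The sum of the list was 349.5 to 484 CPM in MPP3 WT, 353 to 583 CPM in MPP3 KO and 63.0 to 107 CPM in MPP4, with Mcpt1 and Tpsab1 at 0 throughout. Mature neutrophil markers summed to 149 to 193 CPM in MPP3 WT, 149 to 246 CPM in MPP3 KO and 142 to 195 CPM in MPP4, mostly Padi4, and Ly6g had no counts in MPP3. Erythroid markers summed to at most 75.7 CPM in any library, and in MPP4 KO to 67.4 CPM in replicate 1, the lowest library there for 7 of the 10 genes, against 7.90 to 29.2 CPM in the others. Eosinophil markers summed to at most 43.2 CPM and lineage depletion markers to at most 13.4 CPM in any library. The sum of the plasma cell markers ranged from 270.1 to 761 CPM over MPP3 WT and from 179 to 406 CPM over MPP3 KO libraries, and in MPP4 from 211 to 379 CPM in WT and from 188 to 385 CPM in KO. Xbp1, which is not particular to plasma cells, made up much of it (204 and 260 CPM in MPP3 WT and KO). The antibody genes Igkc (223 and 15.3 CPM) and Jchain (70.0 and 5.25 CPM) had lower means in MPP3 KO without a call by edgeR (adjusted p = 0.350 and 0.324). Igkc also had a lower mean in MPP4 KO (5.68 CPM in WT and 0.0556 CPM in KO). Of the 5 plasma cell markers tested, 3 were lower in MPP3 KO and 1 in MPP4 KO at an unadjusted p under 0.05 by edgeR. DESeq2 called 1 lower in MPP3 KO and 0 in MPP4 KO. The part of these cells in the levels of the 10 genes was not tested.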

How the data were processed

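Members and gene lists were chosen with earlier results of these data known. The authors trimmed paired-end reads, aligned them to mm10 (STAR 2.7.3a) and made gene counts in featureCounts 2.0.0 under snakePipes; the annotation release and use of strand are not given in the sources used here. The deposited raw counts (24823708 to 48703193 per library) were used for all tests. In the deposited normalised signal, the authors' counts divided by 1 size factor per library, the 10 genes matched the raw counts within 0.0756%. Symbols came from GENCODE, which matched 47224 of 47937 identifiers.

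Genes averaging over 100 counts in at least 1 group were tested with edgeR 4.0.16 (R 4.3.3; TMM, quasi-likelihood F-test, 1 mean per group, all 16 libraries), with Benjamini-Hochberg adjustment and a threshold of 0.1. The tests were checked on simulated data. The 4 libraries of a group came from 4 mice. Both libraries of a mouse deviated together (correlation 0.269 to 0.548 in 8 of 8 mice, from the shared genotype, number, sex and age in the labels), so the mouse was used as a block in an alternative. All 10 genes, the 8 genes most like their mean profile, genes beside a member in the genome and called genes of the lists (the 4 largest per direction) were to be named by rule. Not every called gene of the marker lists is named, and list genes outside the rule (among them Ctsc, Cybb and the uncalled genes) were named after their values were seen. Values are log2(CPM + 0.5) for correlations. Other alternatives were RLE scaling, DESeq2 1.42.0, no count filter, sex or age as a term, the replicate number as a block, 8 libraries alone, and leaving out each library or, chosen after seeing the data, each mouse.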

Additional observations from a re-analysis of the deposited data

How the results depend on the processing

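Mpo, Elane, Prtn3, Ctsg, Ms4a3 and Nkg7 were called higher in MPP3 in both genotypes under every alternative run. Leaving out 1 library or 1 mouse gave 6 to 7 of the 10 genes called in WT and 7 to 8 in KO, 0 to 3 between genotypes in MPP3, 0 to 1 in MPP4 and 0 for the interaction. Over all genes these fits called 1139 to 1805 genes between populations in WT, 1393 to 2202 in KO, 1 to 137 between genotypes in MPP3, 1 to 49 in MPP4 and 0 to 1 for the interaction. Between genotypes in MPP3, DESeq2 called 215 genes (2 of the 10), sex as a term 58 (1 of the 10), age as a term 1, the replicate number as a block 29 (1 of the 10) and the 8 MPP3 libraries alone 1. In MPP4 the same settings gave 305 (1 of the 10), 183 (2 of the 10), 1, 23 (1 of the 10) and 21 (1 of the 10). For the interaction DESeq2 called 8 genes and the mouse block 2. The mouse block called 2930 genes between populations in WT and 3346 in KO, and changed no other call of the 10 genes than that of Serpinb1a in WT. Libraries of WT and KO with the same replicate number did not deviate together (correlation -0.464 to 0.127, 0 of 8 best with their own number), so the number does not pair them.

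Signs turned only for values within 0.17 of 0 on the log2 scale, and the cause was not tested. For KO against WT in MPP4, Elane was 0.0079 with sex as a term, and with age as a term Lyz2 was -0.0457, Nkg7 -0.0439 and Serpinb1a 0.0540, while Nkg7 in MPP3 was -0.0163. Leaving out 1 library or mouse moved Elane in MPP4 between -0.31 and 0.25, Lyz2 between -0.0103 and 0.11 and Nkg7 between -0.0105 and 0.24, Serpinb1a in MPP3 between -0.0028 and 0.13, and the interaction of Cst7 between -0.10 and 0.16, of Ctsg between -0.21 and 0.11, of Gfi1 between -0.20 and 0.46 and of Nkg7 between -0.0785 and 0.18. Without a change of sign, these fits moved KO against WT by over 1.5 times for Gfi1 in MPP3 (0.62 to 1.284), Lyz2 in MPP3 (0.0797 to 0.24), Nkg7 in MPP3 (0.0881 to 0.24), Ms4a3 in MPP4 (0.12 to 0.74) and Serpinb1a in MPP4 (-0.11 to -0.0220), none of them called. Between populations these fits moved Cst7 between -0.34 and -0.11 in WT and between -0.30 and -0.055 in KO, with no call. Gfi1 moved between -0.65 and -0.12 in WT and between -0.50 and -0.020 in KO, and Serpinb1a in WT between 0.054 and 0.20, also with no call. With 4 libraries a group, the KO effects of Elane and Ms4a3 had standard errors of 0.42 to 0.48 on the log2 scale, so differences of that size were not detectable.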

Other observations

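Sex was balanced between the genotypes and was read for the 10 genes after their values had been seen. Among mice labelled KO the males were younger than the females, so a sex difference cannot be told apart from one of age there. In the fit with sex as a term, Gfi1 was higher in male than in female mice by a log2 difference of 0.79 ± 0.16 (edgeR, adjusted p = 0.0121) and Nkg7 by 0.34 ± 0.07 (adjusted p = 0.0117). None of the other 8 genes was called, and 13.3% of all genes tested were (1572 genes). Male means of Gfi1 exceeded female means in each of the 4 groups, as did those of Nkg7. The fit treats both libraries of a mouse as separate samples, so its p-values are too small. Over mice, with sexes exchanged within each genotype, the exact permutation test (two-sided, 36 arrangements) gave p = 0.0556 for each of these genes, the smallest value this design allows. Mpo, Elane and Ms4a3 lay the other way, lower in males by 0.29 ± 0.15, 0.51 ± 0.31 and 0.46 ± 0.30, with no call (exact permutation p = 0.278, 0.389 and 0.333 over mice).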
